A study of Homo sapiens with 62 samples.

Results

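RUVBL1 and RUVBL2 and the genes of the complexes that contain or depend on them were followed through 7 treatment comparisons of newly made and total RNA in pancreatic cancer cell lines. The 42 genes were chosen by name, as subunits of INO80, SRCAP, TIP60/EP400, R2TP and TTT and as HIT zinc finger cofactors, from the 29794 genes counted.

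RUVBL1 and RUVBL2 are paralogous AAA+ ATPases that assemble into hetero-hexameric rings. The ring is a structural part of the chromatin remodellers INO80, SRCAP and TIP60/EP400, which move nucleosomes, exchange the histone variant H2A.Z and acetylate histones. With RPAP3 and PIH1D1 the same ring forms the R2TP co-chaperone, which works with HSP90 to assemble RNA polymerases, box C/D snoRNPs and, through the TTT complex, kinases of the PIKK family.

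The cells were AsPC-1, a human pancreatic cancer line of classical identity, and T3M-4, a line of basal-like identity, both with the genotype FKBP12-F36V-FLAG-KLF5_sgEndogenousKLF5, in which a lentiviral tagged KLF5 replaces the endogenous protein. All groups, controls included, carry this change, and each identity is represented here by 1 line, so line and identity cannot be told apart. SLAM-seq, in which 4-thiouridine taken up into new RNA is read as T-to-C conversions in sequencing reads from transcript 3′ ends, was performed on 62 libraries. In AsPC-1 there were 10 libraries after 4h dTAGv1 (the degrader of the tagged KLF5, here dTAG) and 10 after 4h dTAG-NEG (its inactive control compound, here NEG). The same line gave 5 libraries after 4h CB6644 (CB-6644, which inhibits the ATPase activity of the RUVBL1/2 ring), 4 after 12h CB6644 and 4 after 4h NVP2 (NVP-2, an inhibitor of the transcription kinase CDK9), with 5 solvent libraries of 4h DMSO and 4 of 12h DMSO. T3M-4 gave 4 libraries for each of the 4 h treatments, that is dTAG, NEG, CB-6644, NVP-2 and DMSO.

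T>C reads are reads that carry a conversion and stand for newly made RNA, all reads stand for total RNA, and the labelled share is the percentage of a gene's reads that carry a conversion. A called gene is one with an adjusted p under 0.05 over all genes tested. T>C reads summed to 2240998 to 27982537 per library and all reads to 82676553 to 244524608, and the 42 genes together held 3396 to 58050 T>C reads per library. The labelled part of all reads had a median of 10.29% in DMSO 4 h and 1.515% in NVP-2 in AsPC-1, and of 12.22% and 2.17% in T3M-4. KLF5 T>C reads, which do not report on the degraded protein, were 132, 159 and 196 CPM (reads scaled to a common library size) in the lowest, median and highest library in dTAG and 69.6, 106 and 139 in NEG in AsPC-1, and 996, 1046 and 1194 against 516, 573 and 634 in T3M-4. In DMSO 4 h libraries, epithelial marker genes summed to 3877 to 7517 CPM in AsPC-1 and 1317 to 2102 in T3M-4, while fibroblast markers summed to at most 15.9 and leukocyte markers to at most 14.9 CPM. AsPC-1 libraries fell into 3 sets by their most variable genes (17, 17 and 8 libraries). Between sets, MORF4L2 alone of 40 tested genes of the group, or MORF4L2 and INO80E, stood apart in the control libraries, where 11.8% and 12.3% of all genes did. MORF4L2 encodes a subunit of TIP60/EP400, and INO80E a subunit of INO80.

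Of the 42 genes, 40 or 41 had enough reads to be tested in each comparison. TFPT, an INO80 subunit, had no T>C read in any of the 61 libraries with usable files of both kinds and at most 40 reads in all in any 1 of them, so no change in it was detectable at this depth. ZNHIT3, a HIT zinc finger protein that works in snoRNP assembly, had T>C reads in 20 of the 61 libraries, at most 40 in 1 library, and passed the filter on low counts for T>C reads in the dTAG comparison of T3M-4 alone.

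RUVBL1 lies at chr3:128064778-128153914 on the minus strand (ENSG00000175792.12, GRCh38), and its annotated 3′UTR exons overlap SEC61A1 on the other strand. RUVBL2 lies at chr19:48993562-49015970 on the plus strand (ENSG00000183207.15), with no annotated overlap of its 3′UTR exons. The RefSeq promoter table (GRCh38.p14, 250 bases before to 50 after each start) held 43 promoters for 35 of the 42 genes. KLF factors are known to recognise GC-rich boxes, so each promoter was searched for GGGCGGG, or CCCGCCC on the other strand. At least 1 match was found in 16 of the 43 promoters (37.2%), against 33.1% of all 35116 promoters. Neither RUVBL1 promoter in the table held these letters, and both RUVBL2 promoters did, which are shown because they set the 2 paralogs apart. A match is a description of the sequence and not a binding site. The capitals mark the match and its orientation is that of the gene.
RUVBL2 first promoter, chr19:48993746-48993772, plus strand: ctcggtgggaGGGCGGGgcataaagtc
RUVBL2 second promoter, chr19:48993389-48993415, plus strand: ccacgcccggGGGCGGGgatttccgcg

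In both lines the genes of the RUVBL1/2 group differed widely in how much of their RNA carried label in solvent-treated cells. The share also depends on the base composition of each 3′ end, so its order over genes is a description. EPC1, a scaffold subunit of TIP60/EP400, had the largest share, 51.5% ± 4.55 (SD, n = 5) in AsPC-1 and 71.2% ± 2.08 (SD, n = 4) in T3M-4. Its 4 T3M-4 libraries, 70.8%, 68.4%, 73.1% and 72.4%, all lay above the 5 AsPC-1 libraries, 44.8%, 57.3%, 52.5%, 52.6% and 50.5%. Next in both lines came MBTD1 and EPC2, also of TIP60/EP400. MBTD1 had 47.3% in AsPC-1 and 59.0% in T3M-4, and EPC2 had 44.1% and 57.9%. ING3, a reader of methylated histone H3, had 39.5% and 40.6%. Shares above that of ING3 were also those of INO80D in both lines (41.7% and 55.6%), of TTI2 in AsPC-1 (43.4%) and of ZNHIT2 in T3M-4 (48.3%).

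The ring genes themselves lay at the low end of the labelled share. RUVBL2 had 3.22% ± 1.06 (SD, n = 5) in AsPC-1 and 4.88% ± 1.05 (SD, n = 4) in T3M-4, and only ZNHIT1, a SRCAP subunit, was lower in both lines, at 2.37% ± 0.727 and 4.10% ± 0.768. RUVBL1 had 9.42% ± 3.27 and 8.48% ± 1.93, the rank of 33 and 32 among 40 genes from the largest share. RUVBL1 and RUVBL2 thus had shares below the median of all genes, 16.6% in AsPC-1 and 18.9% in T3M-4, while the median over the 40 genes was 17.5% and 16.4%. The order of the 40 genes was much alike in the lines (Pearson r 0.942, Spearman rho 0.939 over 40 genes, a description, as gene length and base composition are shared by both lines).

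After KLF5 degradation for 4 h, none of the RUVBL1/2 group was called in T>C reads in either line. Of 40 genes tested in AsPC-1, edgeR called 0 (2.4% of all genes tested were called), with 4 at an unadjusted p under 0.05, and DESeq2 called 1, TRRAP (4.09% of all genes). In T3M-4, edgeR called 0 of 41 (0.834% of all genes), with 0 at an unadjusted p under 0.05, and DESeq2 called 0. The median log2 change was 0.11 in AsPC-1 (0.03 over all genes) and -0.01 in T3M-4 (0.01 over all genes), and 39 of 40 and 39 of 41 changes lay within 0.5 of 0 on the log2 scale.

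RUVBL1 T>C reads in AsPC-1 were 6.24, 10.3 and 11.7 CPM in dTAG and 3.82, 9.2 and 11.5 CPM in NEG (lowest, median and highest of 10 libraries each). The groups overlapped almost fully, with a log2 difference of 0.16 ± 0.17 (SE, adjusted p = 0.818). RUVBL2 had 15.1, 26.7 and 131 CPM in dTAG and 10.9, 22.8 and 40.6 CPM in NEG, a difference of 0.70 ± 0.33 (adjusted p = 0.402). The single library of 131 CPM, dTAG replicate 3.3, stood far above the others, and RUVBL2 was also high in all reads there, at 222 CPM. The RUVBL2 difference was 1.04 within batch 2, -0.16 within experiment 1 and 0.19 without experiment 3, which is the whole of batch 2 in this comparison. In experiment 2 the dTAG libraries had 31.9 and 24.0 CPM and the NEG libraries 16.6 and 15.9 CPM, scaled over all libraries of the line.

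TRRAP, the large scaffold protein that TIP60/EP400 shares with SAGA, had 421, 524 and 928 CPM in dTAG and 338, 444 and 501 CPM in NEG in AsPC-1. The highest dTAG libraries were those of experiment 3, and the groups overlapped. The difference of 0.43 ± 0.13 on the log2 scale was not called (adjusted p = 0.0886). It was called by DESeq2 (adjusted p = 0.0384) and in edgeR with a block on library set and experiment (0.40, adjusted p = 0.0441), was 0.81 within batch 2, and was 0.09 without experiment 3 (adjusted p = 0.800). INO80E had the smallest p among the genes that were lower, with 14.4, 34.6 and 47.1 CPM against 19.1, 35.7 and 61 CPM (-0.21 ± 0.20, adjusted p = 0.795).

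In T3M-4, RUVBL1 T>C reads were 22.1, 14, 20.8 and 31 CPM in dTAG and 12.7, 16.3, 18.8 and 22.9 CPM in NEG (0.31 ± 0.28, adjusted p = 0.999). RUVBL2 had 39.7, 29.9, 42.5 and 40 CPM in dTAG and 47.7, 34.4, 41.1 and 52.7 CPM in NEG (-0.21 ± 0.20, adjusted p = 0.999). Both genes had overlapping groups. The smallest p values in each direction belonged to INO80 subunits, ACTR8, an actin-related protein (0.79 ± 0.50, adjusted p = 0.936), and INO80C (-0.50 ± 0.29, adjusted p = 0.893). The difference of the dTAG effects between the lines was called for 0 of 41 genes by edgeR (0.0426% of all genes), with 2 at an unadjusted p under 0.05 and 0 by DESeq2, and was 0.17 ± 0.32 for RUVBL1 and -0.89 ± 0.55 for RUVBL2.

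Total RNA of the group gave the same counts. In all reads after dTAG, edgeR called 0 of 40 genes in AsPC-1 (0.797% of all genes, 5 at an unadjusted p under 0.05, DESeq2 0) and 0 of 41 in T3M-4 (0.0191% of all genes, 0 at an unadjusted p under 0.05, DESeq2 0). RUVBL1 had 7.61, 10 and 12 CPM of all reads in dTAG and 6.52, 9.86 and 12.1 CPM in NEG in AsPC-1 (0.03 ± 0.11, adjusted p = 0.997; 9 dTAG libraries, since the all-reads values of dTAG replicate 3.1 were not used). RUVBL2, scaled over all libraries of the line, had 44.8, 55.7 and 219 CPM of all reads in dTAG. In NEG it had 42.3, 48.8 and 82.2 CPM, and the highest library of each group was replicate 3.3. The levels of both ATPase genes in every library are drawn in the plot of RUVBL1 and RUVBL2 by treatment.

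**Figure D1:**
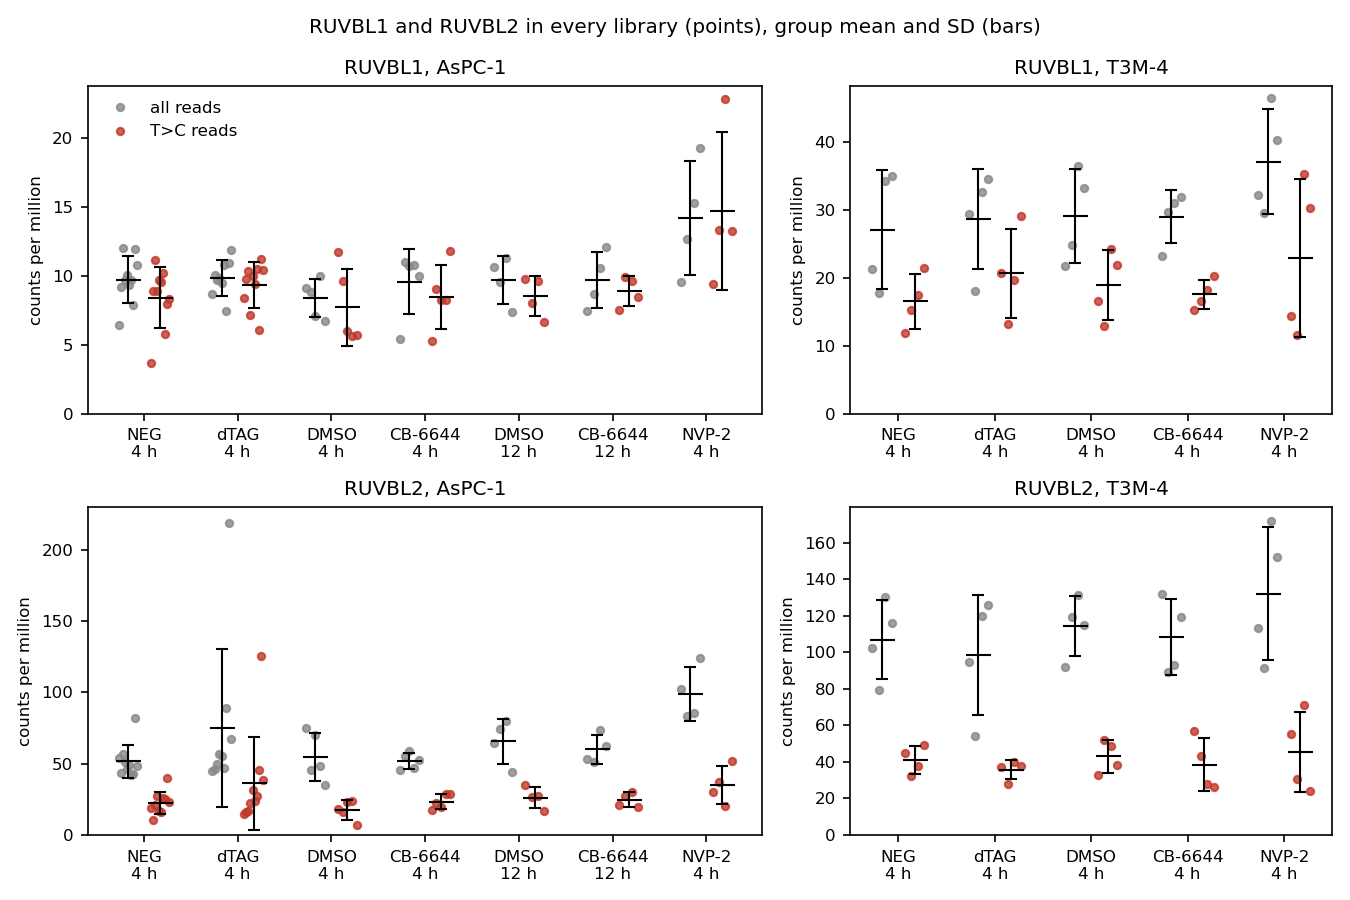
RUVBL1 (top) and RUVBL2 (bottom) in AsPC-1 (left) and T3M-4 (right), with CPM on the vertical axis and treatment groups on the horizontal axis. Each point is 1 library (grey for all reads, red for T>C reads), and bars give the group mean and SD. Values were scaled over all libraries of a line and so differ slightly from those of single comparisons. The RUVBL2 point near 219 CPM of all reads is dTAG replicate 3.3 in AsPC-1, and in AsPC-1 the NVP-2 group has the highest mean of RUVBL1 in both kinds of reads.

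The labelled share of the group was lower after dTAG in AsPC-1, as it was for genes at large. It was lower in all 40 genes by sign, and 16 were called lower (40.1% of all genes tested were), with a median log2 change of -0.24 against -0.27 over all genes. By complex the called genes were 8 of 12 in TIP60/EP400, 3 of 11 in INO80, 2 of 4 in SRCAP, 1 of the 3 shared subunits, 1 of 3 in TTT, 1 of 2 HIT zinc finger genes and none of R2TP or the ATPases. ING3 had shares of 26.5%, 30.6% and 35.2% in dTAG and 35.5%, 40% and 43.6% in NEG, groups that did not overlap (-0.36 ± 0.06, adjusted p = 0.000715). Such groups were found for 1 of 40 genes, and for 1.61% of all genes. YEATS4, a reader of acetylated histones shared by SRCAP and TIP60/EP400, fell by 0.44 ± 0.08 (adjusted p = 0.000804), and EP400, the remodelling ATPase of its complex, by 0.44 ± 0.08 (adjusted p = 0.0013). BRD8, a bromodomain subunit of TIP60/EP400, fell by 0.38 ± 0.07 (adjusted p = 0.00115). ACTR5 fell by 0.36 ± 0.11 (adjusted p = 0.0212) and INO80E by 0.45 ± 0.15 (adjusted p = 0.0259), both subunits of INO80.

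These calls moved with the labelling of the whole library and with the experiment. After each library was centred on its median share, limma called 0 of 40 genes (0.785% of all genes), with 4 at an unadjusted p under 0.05. Without experiment 1 the count was 0 (1.36% of all genes), without experiment 2 it was 8 (21% of all genes), and within batch 2 it was 0 (0.0247% of all genes). RUVBL1 had shares of 6.24%, 7.52% and 8.82% in dTAG and 5.66%, 9.01% and 10.7% in NEG (-0.12 ± 0.12, adjusted p = 0.42), and RUVBL2 differed by -0.15 ± 0.18 (adjusted p = 0.471). In T3M-4, limma called 0 of 41 genes in labelled share after dTAG (0.00752% of all genes), with 2 at an unadjusted p under 0.05. The smallest p was that of MBTD1, a reader of methylated histones, with 60.5%, 60.7%, 55.4% and 65.6% against 52.3%, 53.9%, 51.6% and 35.6% (0.34 ± 0.14, adjusted p = 0.739).

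After inhibition of the RUVBL1/2 ATPase with CB-6644, edgeR called none of the group in T>C reads at either time or in either line. It called no gene at all in these comparisons, so the lack of calls is not particular to the group. edgeR called 0 of 40 genes after 4 h in AsPC-1 (0% of all genes), with 0 at an unadjusted p under 0.05 and 0 by DESeq2. After 12 h in AsPC-1 it called 0 of 40 (0% of all genes), with 2 at an unadjusted p under 0.05, and DESeq2 called 1, KAT5 (0.164% of all genes). After 4 h in T3M-4 it called 0 of 40 (0% of all genes), with 1 at an unadjusted p under 0.05 and 0 by DESeq2. Median log2 changes were -0.04, -0.04 and -0.01 (-0.01, -0.01 and 0.00 over all genes), and 40, 36 and 37 of 40 genes stayed within 0.5 of 0.

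The ATPase genes that encode the target of CB-6644 had overlapping groups in all 3 comparisons. RUVBL1 T>C reads in AsPC-1 were 5.34, 9.15, 8.33, 8.35 and 11.9 CPM after 4 h and 12.1, 9.7, 6.07, 5.7 and 5.75 CPM in DMSO (0.14 ± 0.30, adjusted p = 0.988). RUVBL2 had 18, 22.5, 19.6, 29.6 and 29.5 CPM against 18.9, 16, 23.8, 24.2 and 6.84 CPM (0.41 ± 0.30, adjusted p = 0.979). Apart from 1 RUVBL1 library below and 2 RUVBL2 libraries above it, the treated libraries lay within the DMSO range. After 12 h, RUVBL1 had 8.11, 10.7, 10.2 and 9.1 CPM against 10.5, 8.62, 10.1 and 7.16 CPM (0.07 ± 0.24, adjusted p = 0.998), and RUVBL2 differed by -0.09 ± 0.26 (adjusted p = 0.998). In T3M-4, RUVBL1 had 16.6, 18.2, 19.6 and 21.9 CPM against 18, 14, 26.2 and 23.5 CPM (-0.10 ± 0.23, adjusted p = 0.996) and RUVBL2 differed by -0.15 ± 0.28 (adjusted p = 0.996).

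KAT5, the acetyltransferase of TIP60/EP400, was the gene of the group furthest from 0 after 12 h. Its T>C reads were 70.7, 71.7, 54.9 and 34.1 CPM in CB-6644 and 171, 112, 130 and 140 CPM in DMSO, so that every treated library lay below every control. The difference was -1.26 ± 0.26 on the log2 scale (2.39-fold lower, unadjusted p = 0.000745, adjusted p = 0.872). DESeq2 called it (adjusted p = 0.00654), and the fit with a block for the replicate number did not (adjusted p = 0.514). In all reads KAT5 had 56.7, 77.8, 40.3 and 30.9 CPM against 146, 81.7, 94.4 and 113 CPM, again without overlap (-1.08 ± 0.31, adjusted p = 1.00). Groups of all reads did not overlap for 3 of 40 genes there, and for 2.28% of all genes. KAT5 3′UTR exons overlap RNASEH2C on the other strand. Between 4 h and 12 h the KAT5 effect differed by -0.94 ± 0.34 (adjusted p = 1.00), and over the group 0 of 40 differences between the times were called (0% of all genes, 2 at an unadjusted p under 0.05, DESeq2 0).

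Other genes of the group with the smallest p values after CB-6644 were not called. EPC2 after 12 h had 17.1, 15.8, 15.6 and 16.7 CPM against 11.8, 14.3, 14.6 and 13.9 CPM, without overlap (0.26 ± 0.19, adjusted p = 0.998). Groups without overlap after 12 h were found for 3 of 40 genes, and for 3.24% of all genes. ACTL6A, an actin-like protein shared by INO80, TIP60/EP400 and the BAF remodellers, had 34.4, 29.6, 42.1 and 39.2 CPM in CB-6644 and 44.2, 47.8, 62.3 and 54.3 CPM in DMSO in T3M-4, also without overlap (-0.52 ± 0.19, adjusted p = 0.994). In T3M-4 the groups did not overlap for 1 of 40 genes, and for 3.14% of all genes. At 4 h in AsPC-1, ZNHIT6, a cofactor of box C/D snoRNP assembly, differed by -0.40 ± 0.19 and EPC1 by 0.27 ± 0.16 (both with adjusted p = 0.979). The difference of the 4 h effects between the lines was called for 0 of 40 genes (0% of all genes, 1 at an unadjusted p under 0.05, DESeq2 0).

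All reads after CB-6644 gave 0 calls of 40 by edgeR at 4 h in AsPC-1 (0% of all genes, 0 at an unadjusted p under 0.05, DESeq2 0), 0 at 12 h (0% of all genes, 3 at an unadjusted p under 0.05, DESeq2 0) and 0 in T3M-4 (0.0127% of all genes, 1 at an unadjusted p under 0.05, DESeq2 0). TELO2, the TTT subunit that carries PIKK kinases to R2TP, had 14.2, 28.5, 12.5 and 10.4 CPM against 10.2, 10.2, 9.79 and 10.7 CPM in T3M-4, a difference carried mainly by 1 library (0.68 ± 0.29, adjusted p = 1.00).

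In labelled share, CB-6644 gave 0 calls of 40 by limma at 4 h in AsPC-1 (0% of all genes), with 14 at an unadjusted p under 0.05, where 23.1% of all genes had such a p. The count was 0 at 12 h (0% of all genes, 1 at an unadjusted p under 0.05) and 0 in T3M-4 (0% of all genes, 0 at an unadjusted p under 0.05). ZNHIT6 came closest, with 20.3%, 19.4%, 24.5%, 24.7% and 26% labelled in CB-6644 and 44.2%, 33.3%, 31.6%, 30.8% and 29.5% in DMSO at 4 h in AsPC-1. Every treated library was below every control (-0.55 ± 0.13, adjusted p = 0.0846). Groups did not overlap for 7 of 40 genes in that comparison, and for 7.59% of all genes. The labelled part of all reads was itself lower there, with a median of 8.433% against 10.29%, and relative to the median share of each library ZNHIT6 differed by -0.33 ± 0.12 (adjusted p = 0.547). INO80D had 43.5%, 45.2%, 43.8% and 44.8% against 36.1%, 42.3%, 34.9% and 37.3% at 12 h (0.24 ± 0.08, adjusted p = 0.999).

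CDK9 inhibition with NVP-2 moved genes of the group in both directions relative to other genes. NVP-2 and CB-6644 at 4 h were compared with the same DMSO libraries. CPM are relative to the library, and T>C reads as a whole were far fewer after NVP-2, so a rise in CPM of T>C reads is a rise in the share of the remaining T>C reads. The part of these reads that carried a conversion without label was not tested. Scaled instead by all reads, the T>C reads of all 40 genes were called lower in both lines (94.2% of all genes were called in AsPC-1 and 87.2% in T3M-4). In AsPC-1, 1 gene was called higher (12.9% of all genes were) and 10 lower (17.6% of all genes were), with a median log2 change of -0.37 against -0.05 over all genes. In T3M-4, 3 were called higher (12.4% of all genes) and 4 lower (14.2% of all genes), with a median of -0.25 against -0.12. ING3, KAT5, MRGBP and ZNHIT2 were called lower and ACTL6A higher in both lines, that is 5 genes, or 45.5% of those called in AsPC-1 and 71.4% of those called in T3M-4. The same overlap over all genes was not computed, so whether it is particular to the group was not tested. Groups did not overlap for 9 of 40 genes in AsPC-1 (28.4% of all genes) and 10 of 40 in T3M-4 (34.3% of all genes).

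Batch limits the AsPC-1 values. The NVP-2 libraries of AsPC-1 belong to the labelled batch 2 and their DMSO libraries to batch 1, so batch and treatment cannot be told apart there. Set against the NEG libraries of experiment 3, which are of batch 2, VPS72, ACTL6A, KAT5, BRD8, ING3, MRGBP, MORF4L1 and ZNHIT2 stayed called, while INO80B (-0.84, adjusted p = 0.428), YY1 (-0.39, adjusted p = 0.22) and TTI2 (-2.34, adjusted p = 0.0641) did not. In that fit 10 of 40 genes were called (28.4% of all genes). With a block on the 3 library sets, alone or with experiment, ACTL6A (0.82, adjusted p = 0.0734, and 1.18, adjusted p = 0.0536), KAT5 (-1.24, adjusted p = 0.052, and -1.65, adjusted p = 0.0606) and YY1 lost their calls in AsPC-1, so that none of the group was called higher there. MORF4L1 lost its call under the first block, and BRD8 and TTI2 under the second. The first block called 8 of 40 genes (23.8% of all genes) and the second 7 (14.1% of all genes). Equal experiment numbers of NVP-2 and DMSO libraries lie in different batches here, so the second block may not join libraries of a common experiment. T3M-4 has both batches in both groups.

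The ATPase genes were not called in T>C reads after NVP-2. RUVBL1 in AsPC-1 had 8.31, 11.5, 19.5 and 11.6 CPM in NVP-2 and 10.1, 8.03, 5.02, 4.73 and 4.81 CPM in DMSO (0.96 ± 0.40, adjusted p = 0.0848). RUVBL2 had 26.8, 32.6, 17.5 and 45.2 CPM against 15.7, 13.2, 19.6, 20.1 and 5.72 CPM (1.03 ± 0.39, adjusted p = 0.0661). Both genes had 3 of 4 NVP-2 libraries above all DMSO libraries and 1 within their range. The RUVBL2 difference was 0.39 ± 0.34 against the NEG libraries of experiment 3 (adjusted p = 0.43). In T3M-4, RUVBL1 had 13.4, 10.8, 32.2 and 26.5 CPM against 14.2, 10.8, 21.3 and 19 CPM (0.34 ± 0.44, adjusted p = 0.607), and RUVBL2 51.8, 28.4, 65 and 21.2 CPM against 28.1, 43.4, 42.5 and 33.5 CPM (0.17 ± 0.39, adjusted p = 0.777). Batch 2 held the 2 highest RUVBL1 libraries of either group in T3M-4, and the within-batch differences were -0.04 in batch 1 and 0.57 in batch 2.

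In TIP60/EP400, 5 of 12 genes were called lower after NVP-2 in AsPC-1 (17.6% of all genes) and 3 of 12 in T3M-4 (14.2% of all genes), and differences between complexes were not tested. ING3 in AsPC-1 had 2.27, 2.06, 3.25 and 0.551 CPM in NVP-2 and 22, 27.3, 31.8, 35.4 and 33.8 CPM in DMSO. The groups lay far apart, and ING3 fell by 3.84 ± 0.42 on the log2 scale (14.3-fold lower, adjusted p = 9.12e-05), on 20 T>C reads in the 4 NVP-2 libraries. In T3M-4, ING3 had 5.79, 5.6, 5.7 and 1.51 CPM against 19.4, 17.2, 30.5 and 27.2 CPM and fell by 2.32 ± 0.48 (5.01-fold lower, adjusted p = 0.00553). Within T3M-4 it fell by 1.67 in batch 1 (adjusted p = 0.0223) and by 2.97 in batch 2 (adjusted p = 0.0562).

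KAT5 had 15.1, 43.3, 44.7 and 27.6 CPM in NVP-2 and 73.7, 109, 54.8, 126 and 96 CPM in DMSO in AsPC-1, without overlap, and fell by 1.49 ± 0.36 (adjusted p = 0.00875). In T3M-4 it had 16.3, 38.4, 48.6 and 28.4 CPM against 53, 50.3, 117 and 148 CPM and fell by 1.48 ± 0.46 (adjusted p = 0.0345). The T3M-4 controls of KAT5 were low in batch 1 and high in batch 2, and the log2 change was -0.90 in batch 1 (adjusted p = 0.161) and -1.76 in batch 2 (adjusted p = 0.0364). MRGBP, a small subunit of TIP60/EP400, had 3.02, 6.6, 8.13 and 19.8 CPM against 24.4, 26.3, 35.4, 21.9 and 17.3 CPM in AsPC-1 (fell by 1.44 ± 0.47, adjusted p = 0.0353). It had 7.89, 7.68, 10.7 and 7.19 CPM against 22.7, 26.1, 13.7 and 16.9 CPM in T3M-4 (fell by 1.25 ± 0.38, adjusted p = 0.0321). 1 NVP-2 library of MRGBP in AsPC-1 lay within the control range, and none did in T3M-4.

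BRD8 and MORF4L1, a chromodomain protein, were called lower in AsPC-1. BRD8 had 106, 63.1, 107 and 57.3 CPM against 229, 137, 172, 155 and 188 CPM, without overlap (fell by 1.08 ± 0.26, adjusted p = 0.00932). MORF4L1 had 61.2, 54, 80.4 and 75.5 CPM against 101, 157, 81.2, 150 and 122 CPM, also without overlap (fell by 0.85 ± 0.25, adjusted p = 0.0242). Neither was called in T3M-4, where BRD8 differed by -0.98 ± 0.53 (adjusted p = 0.205) and MORF4L1 by 0.62 ± 0.42 (adjusted p = 0.302). MORF4L1 had the smallest adjusted p of the group in the test of the difference between the lines (1.45 ± 0.50, adjusted p = 0.179). That test called 0 of 40 genes (0.851% of all genes, 8 at an unadjusted p under 0.05, DESeq2 0), so no NVP-2 effect on the group was shown to differ between AsPC-1 and T3M-4.

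In INO80, 2 of 11 genes were called lower in AsPC-1 (17.6% of all genes) and 0 in T3M-4 (14.2% of all genes). INO80B had 1.51, 0.412, 0.813 and 5.51 CPM against 14.2, 7.42, 6.46, 11 and 9.95 CPM in AsPC-1 (fell by 2.32 ± 0.65, adjusted p = 0.0182), on 17 T>C reads in the NVP-2 libraries. In T3M-4 it differed by -2.71 ± 0.97 (adjusted p = 0.0604), on 5 reads. YY1, a zinc finger transcription factor that binds INO80, had 231, 233, 193 and 208 CPM against 311, 312, 281, 301 and 366 CPM in AsPC-1 (fell by 0.54 ± 0.18, adjusted p = 0.0391) and differed by -0.17 ± 0.29 in T3M-4. Both genes had groups without overlap in AsPC-1, as 28.4% of all genes did there.

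In SRCAP, VPS72, which binds H2A.Z, was called in AsPC-1 alone. It had 9.82, 7.42, 10.6 and 26.5 CPM against 60.1, 63.1, 26.4, 50.5 and 20.3 CPM (fell by 1.72 ± 0.47, adjusted p = 0.0162), with the highest NVP-2 library inside the DMSO range, and differed by 0.06 ± 0.62 in T3M-4. ACTL6A was called higher in both lines, although in AsPC-1 the block on library sets ended the call. Its T>C reads were 52.5, 42.9, 39.8 and 41.3 CPM against 19.6, 22.5, 32.7, 23.7 and 20.8 CPM in AsPC-1 (0.89 ± 0.25, 1.85-fold, adjusted p = 0.0179). In T3M-4 they were 79.4, 73.5, 110 and 88.1 CPM against 34.8, 36.9, 50.5 and 43.7 CPM (1.08 ± 0.27, 2.11-fold, adjusted p = 0.0144). Neither line had overlapping groups for ACTL6A, which was also called within each batch of T3M-4 (adjusted p = 0.0292 and 0.0499) and was lower on the scale of all reads, at -2.33 in AsPC-1 and -1.95 in T3M-4. ACTL6A 3′UTR exons overlap MRPL47 on the other strand.

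Among the co-chaperone genes, calls went in both directions. URI1, a prefoldin-like partner of R2TP, had 59.4, 34.9, 91.8 and 81 CPM against 22.6, 22.9, 33.4 and 43.4 CPM in T3M-4 (1.12 ± 0.38, adjusted p = 0.0474) and differed by 0.47 ± 0.33 in AsPC-1 (adjusted p = 0.3). TELO2 had 11, 11.2, 14.1 and 26.5 CPM against 5.68, 4.24, 5.28 and 4.79 CPM in T3M-4 (1.64 ± 0.44, 3.12-fold, adjusted p = 0.0185) and differed by 0.16 ± 0.36 in AsPC-1 (adjusted p = 0.77). URI1 groups overlapped and TELO2 groups did not. On the scale of all reads, URI1 was at -1.97 and TELO2 at -1.45. TTI2, a TTT subunit whose 3′UTR exons overlap MAK16 on the other strand, had 0.755, 1.65, 0 and 8.82 CPM against 19.2, 14.5, 18.2, 16.7 and 8.54 CPM in AsPC-1 (fell by 2.55 ± 0.79, adjusted p = 0.0288), on 22 reads in the NVP-2 libraries.

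ZNHIT2, a HIT zinc finger protein that links R2TP to splicing factor assembly, had the lowest remaining signal. In AsPC-1 the 4 NVP-2 libraries held 0, 0, 0 and 1 T>C read and the DMSO libraries 29 to 53, a ratio per T>C read of the library of 0.0245 with a 95% counting interval of 0.000617 to 0.138. The edgeR test called it (adjusted p = 0.00489). In T3M-4 they held 0, 3, 3 and 2 reads against 231 to 399, a ratio of 0.0310 (0.0133 to 0.0612; adjusted p = 0.00196). The 2 lines thus had intervals that overlapped. Apart from the ATPases and the called genes, log2 changes ran from -1.11 to 1.05 over 27 genes in AsPC-1 and from -2.71 to 1.38 over 31 genes in T3M-4, with none called.

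With any 1 library left out, INO80B, VPS72, ACTL6A, KAT5, BRD8, ING3 and ZNHIT2 stayed called in AsPC-1, and ACTL6A, ING3 and ZNHIT2 in T3M-4. The other calls rested on single libraries in part. In AsPC-1, MORF4L1 was called in 5 of 9 such fits, TTI2 in 3 of 9, and MRGBP and YY1 in 2 of 9 each. In T3M-4, TELO2 was called in 6 of 8, KAT5 and MRGBP in 3 of 8 each and URI1 in 2 of 8.

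**Figure D2:**
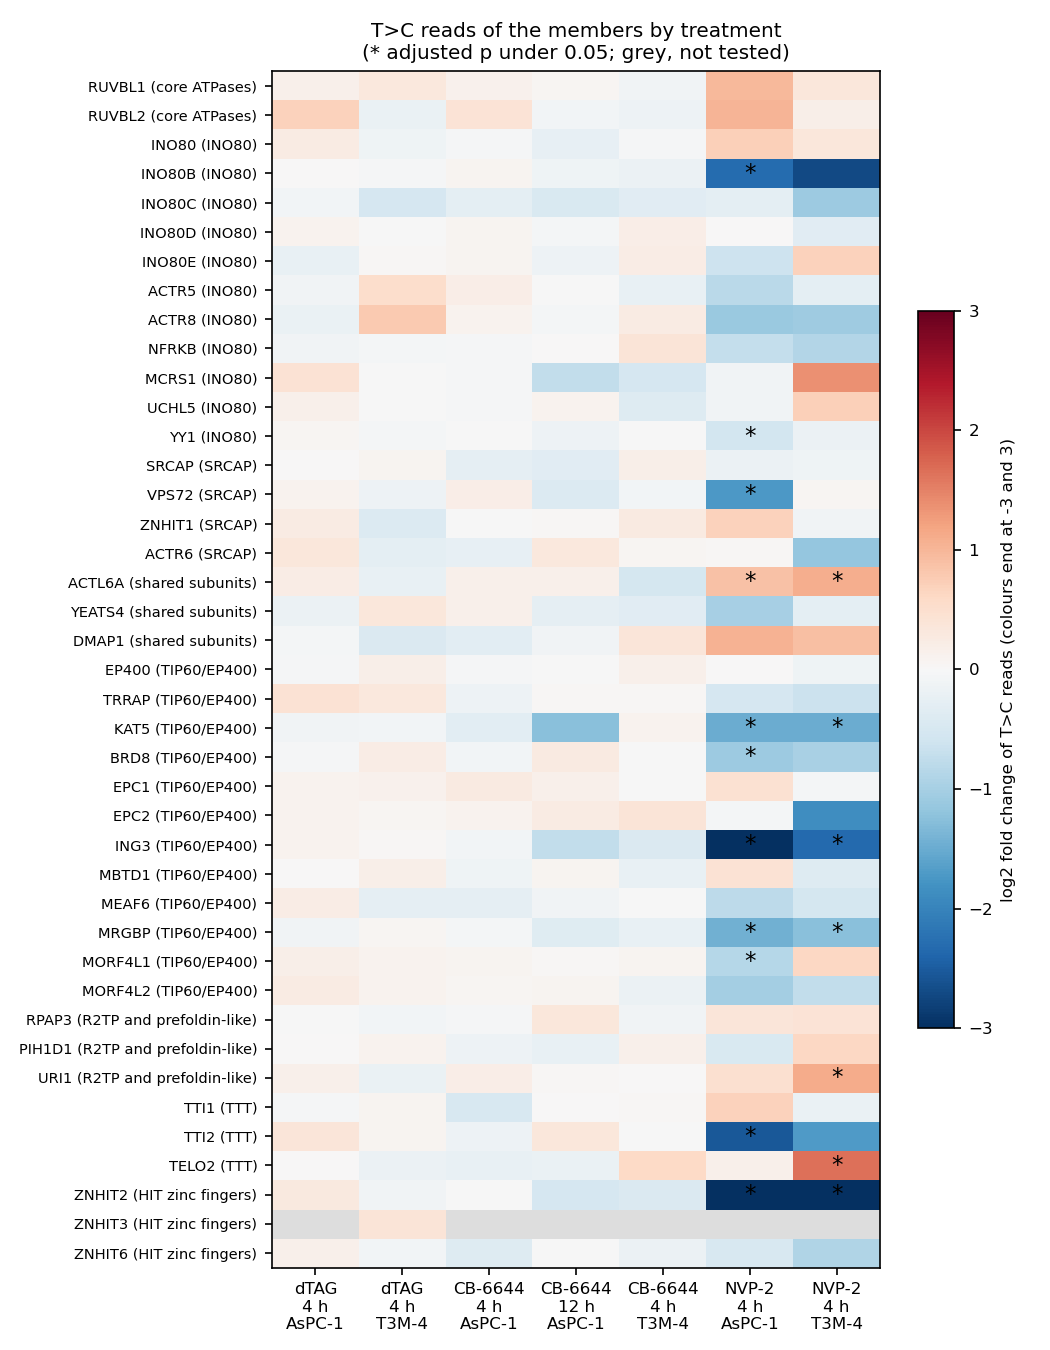
Log2 fold change of T>C reads for each gene of the RUVBL1/2 group (rows, with its complex) in the 7 treatment comparisons (columns, treated against control), with colours ending at -3 and 3, an asterisk for an adjusted p under 0.05 and grey where a gene was not tested. Asterisks stand in the NVP-2 columns alone, 11 in AsPC-1 and 7 in T3M-4, and the dTAG and CB-6644 columns hold pale colours apart from KAT5 at 12 h.

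Total RNA after NVP-2 gave calls in both directions in AsPC-1 and lower calls in T3M-4. In all reads, 2 of 40 genes were called higher in AsPC-1 (3.43% of all genes) and 3 lower (8.39% of all genes), and in T3M-4 3 were called, all lower (5.16% of all genes in either direction). The T3M-4 count depended on the batch, with 1 gene called in batch 1, lower (1.9% of all genes), and 14 in batch 2, 6 of them higher and 8 lower (18.8% of all genes). EPC1 was lower in both lines, with 7.89, 12.9, 7.48 and 8.57 CPM against 22.9, 25.4, 25.5, 26.3 and 23.9 CPM in AsPC-1 (fell by 1.43 ± 0.20, adjusted p = 0.00119). In T3M-4 it had 6.74, 6.23, 4.77 and 5.85 CPM against 17.1, 17.2, 22.3 and 20.2 CPM (fell by 1.70 ± 0.17, adjusted p = 0.00103). EPC1 was the gene with the largest labelled share, and its groups did not overlap in either line. Within T3M-4 it was lower in both batches, at -1.40 and -2.10. Groups of all reads did not overlap for 5 of 40 genes in AsPC-1 (15.1% of all genes). In T3M-4 this held for 7 of 40 genes (13.4% of all genes).

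ZNHIT2 was also lower in all reads, at -1.98 ± 0.34 in AsPC-1 (adjusted p = 0.00416) and -1.13 ± 0.27 in T3M-4 (adjusted p = 0.0439). ING3 was lower in AsPC-1 at -0.91 ± 0.19 (adjusted p = 0.0128), and EPC2 in T3M-4 at -1.07 ± 0.25 (adjusted p = 0.0382). CPM of all reads are also relative to the library, and no spike-in was used. A higher CPM here is thus a larger share of the library, and a rise in amount was not tested. The genes called higher were of low labelled share, RUVBL2 and ZNHIT1. RUVBL2 had 94.1, 78.6, 80.4 and 115 CPM of all reads in NVP-2 and 70.4, 42.1, 66.3, 45.3 and 32.5 CPM in DMSO in AsPC-1 (0.84 ± 0.24, adjusted p = 0.0463), without overlap. ZNHIT1 had 53.7, 64.3, 53.7 and 80.6 CPM against 41.5, 29.5, 42.5, 32.5 and 23.2 CPM (0.90 ± 0.22, adjusted p = 0.0229), also without overlap. RUVBL1 differed by 0.77 ± 0.23 (adjusted p = 0.0535), and in T3M-4 the differences were 0.40 ± 0.23 for RUVBL1 (adjusted p = 0.458) and 0.25 ± 0.24 for RUVBL2 (adjusted p = 0.646). Against the NEG libraries of experiment 3, RUVBL2 in AsPC-1 was not called (0.86, adjusted p = 0.0778). With 1 library left out, RUVBL2 was called in 2 of 9 fits and ZNHIT1 in 5 of 9 in AsPC-1, and EPC2 and ZNHIT2 in 1 of 8 each in T3M-4, while EPC1 stayed called in both lines.

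The labelled share of every tested gene of the group fell after NVP-2. All 40 were called lower in AsPC-1 (96.3% of all genes were) and all 40 in T3M-4 (93.6% of all genes), with median log2 changes of -3.54 and -3.40 against -3.16 and -3.28 over all genes. RUVBL1 had 1.57%, 1.32%, 1.83% and 0.756% in NVP-2 and 13.3%, 11.9%, 9.01%, 5.11% and 7.79% in DMSO in AsPC-1 (fell by 2.76 ± 0.35), and RUVBL2 fell by 2.81 ± 0.34. In T3M-4 RUVBL1 fell by 3.04 ± 0.29 and RUVBL2 by 3.05 ± 0.53. ING3 had 0.742%, 0.578%, 1.05% and 0.175% against 38.4%, 39.5%, 40%, 40.3% and 39.4% in AsPC-1 (fell by 5.99 ± 0.37, adjusted p = 4.85e-07). EPC1 kept the largest share, with 21%, 25.2%, 23.7% and 22.9% in NVP-2 against 44.8%, 57.3%, 52.5%, 52.6% and 50.5% (fell by 1.15 ± 0.14).

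Relative to the median share of each library, the group split. In AsPC-1, 5 genes had a share that fell less than that of other genes (called higher; 19.2% of all genes), namely EPC1 (2.11 ± 0.20), INO80 (1.36 ± 0.40), ACTL6A (1.01 ± 0.25), TTI1 (0.83 ± 0.20) and INO80D (0.68 ± 0.21), and 8 fell more (11.1% of all genes). Those 8 were ING3 (-2.73 ± 0.34), INO80B (-2.06 ± 0.61), MRGBP, VPS72, MORF4L2, MORF4L1, KAT5 and TRRAP. In T3M-4, 5 fell less (15.1% of all genes) and 4 fell more (9.03% of all genes). The 5 were EPC1 (1.93 ± 0.29), TELO2 (1.89 ± 0.35), ACTL6A (1.38 ± 0.25), INO80, the remodelling ATPase (1.12 ± 0.28), and MCRS1 (1.04 ± 0.27), and the 4 were ZNHIT2 (-2.98 ± 0.55), INO80B (-2.91 ± 0.79), ING3 (-1.66 ± 0.35) and KAT5 (-1.23 ± 0.28). EPC1, INO80 and ACTL6A stood above, and ING3, INO80B and KAT5 below, in both lines.

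**Figure D3:**
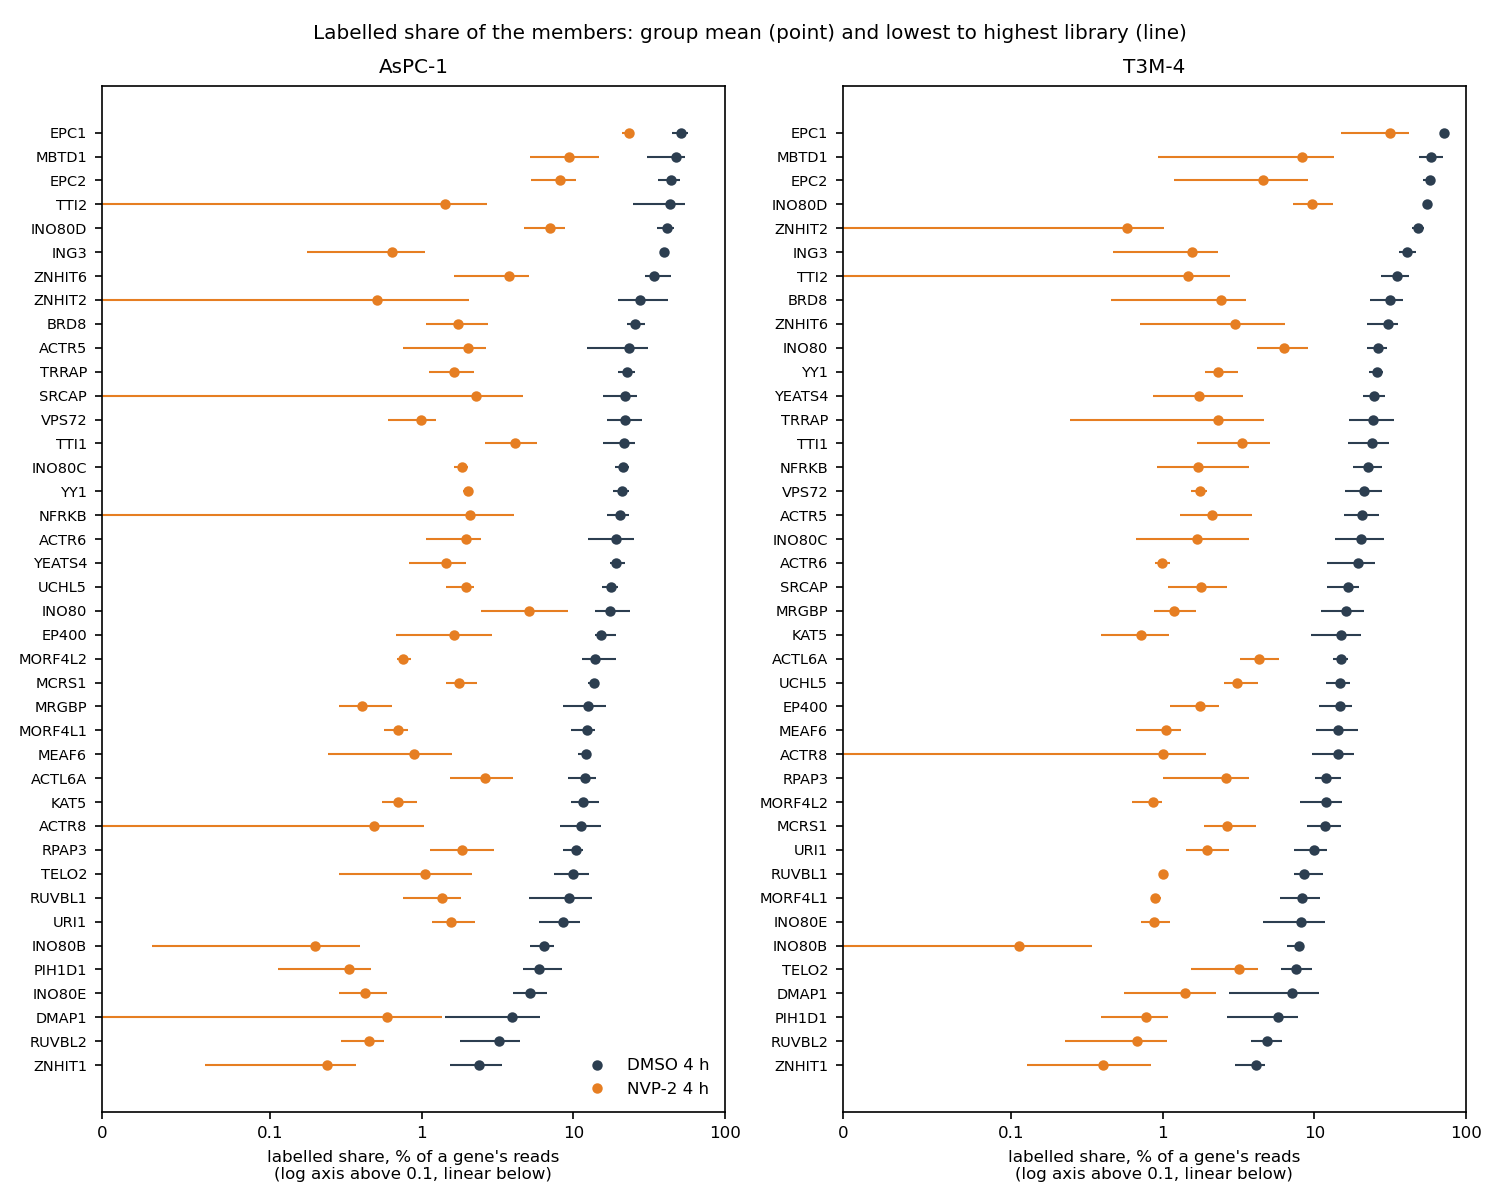
Labelled share (percent of a gene's reads; log axis above 0.1, linear below) of 40 genes of the RUVBL1/2 group in AsPC-1 (left) and T3M-4 (right), ordered by the DMSO 4 h share. Points are group means and lines run from the lowest to the highest library (dark for DMSO 4 h, orange for NVP-2 4 h). All orange lines end left of the dark ones, and 91.7% of all genes in AsPC-1 and 90.9% in T3M-4 had no overlap. EPC1 keeps the largest share under NVP-2 and RUVBL2 and ZNHIT1 are the lowest in DMSO.

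Between the lines in DMSO at 4 h, both ATPase genes were higher in T3M-4 than in AsPC-1. RUVBL1 had 21.3, 24.1, 34.7 and 31.4 CPM of all reads in T3M-4 and 9.42, 9.02, 7.3, 10.2 and 6.91 CPM in AsPC-1 (1.70 ± 0.19, 3.25-fold, adjusted p = 3.49e-05). RUVBL2 had 91, 116, 125 and 109 CPM against 77.6, 46.8, 72.1, 49.5 and 35.7 CPM (0.97 ± 0.23, 1.95-fold, adjusted p = 0.00437). Both were without overlap, and both were also higher in T>C reads, RUVBL1 2.65-fold (adjusted p = 0.00256) and RUVBL2 by 1.39 ± 0.32 on the log2 scale (adjusted p = 0.0039). Over the group, 10 of 40 genes were called higher in T3M-4 in all reads (30.5% of all genes) and 8 lower (25.2% of all genes). In T>C reads 6 were higher (26.8% of all genes) and 9 lower (21.6% of all genes), with a median log2 difference of -0.12 against 0.11 over all genes. Groups did not overlap for 17 of 40 genes in all reads, and for 48.1% of all genes. In T>C reads this held for 12 of 40 genes, and for 41.8% of all genes.

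TRRAP had the largest difference between the lines. Its all reads were 9.36, 10.9, 13.1 and 13.1 CPM in T3M-4 and 211, 212, 156, 213 and 184 CPM in AsPC-1, and its T>C reads were 23.1, 22.6, 25.5 and 21.7 CPM against 445, 458, 354, 448 and 377 CPM. The groups were far apart on both scales, at -4.07 ± 0.18 in all reads (16.8-fold lower in T3M-4, adjusted p = 1.08e-07) and -4.16 ± 0.17 in T>C reads (17.9-fold lower, adjusted p = 5.08e-08). Counts come from annotated 3′UTR exons, and a difference in the 3′ end used was not tested.

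Of the INO80 subunits, INO80B, INO80C and INO80E were lower in T3M-4. INO80B had 4.38, 4.86, 3.26 and 4.88 CPM of all reads in T3M-4 and 24, 15.9, 11.8, 23.6 and 18.8 CPM in AsPC-1 (-2.11 ± 0.24, adjusted p = 4.15e-05), and INO80C had 2.62, 2.82, 3.87 and 3.33 CPM against 15.2, 11.4, 17.5, 9.85 and 10.1 CPM (-2.02 ± 0.23, adjusted p = 4.1e-05). INO80E, whose 3′UTR exons overlap DOC2A on the other strand, differed by -1.06 ± 0.23 (adjusted p = 0.00255). RPAP3 of R2TP differed by -0.94 ± 0.21 (adjusted p = 0.00306) and URI1 by -0.77 ± 0.26 (adjusted p = 0.0274). Higher in T3M-4 were ZNHIT2 (1.44 ± 0.23, adjusted p = 0.000336), TTI2 (1.37 ± 0.16, adjusted p = 4.56e-05), YEATS4 (1.18 ± 0.33, adjusted p = 0.0104) and MORF4L1 (0.95 ± 0.29, adjusted p = 0.0186). In T>C reads ZNHIT2 was higher by 2.12 ± 0.33 and YEATS4 by 1.38 ± 0.31, and INO80C differed by -2.28 ± 0.26 and INO80B by -1.97 ± 0.30, as in total RNA. URI1 in all reads was called in 4 of 9 fits with 1 library left out and MORF4L1 in 7 of 9.

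The AsPC-1 libraries of this comparison belong to batch 1 and those of T3M-4 to both batches. Within batch 1, in an alternative added after the data were seen, 16 of 41 genes were called in all reads (46.8% of all genes) and 11 of 41 in T>C reads (38% of all genes). There RUVBL1 differed by 1.38 in all reads (adjusted p = 0.000879) and RUVBL2 by 0.85 (adjusted p = 0.0444), and TRRAP by -4.29. YEATS4 (0.54, adjusted p = 0.226) and MORF4L1 (0.45, adjusted p = 0.286) were not called in all reads within batch 1, nor was RUVBL1 in T>C reads (1.00, adjusted p = 0.0541).

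The labelled share was called higher in T3M-4 for 3 of 40 genes (12.3% of all genes). EPC1 was higher by 0.47 ± 0.08 on the log2 scale (adjusted p = 0.00746), INO80D by 0.42 ± 0.10 (adjusted p = 0.0246) and ZNHIT2 by 0.85 ± 0.21 (adjusted p = 0.0276). RUVBL1 differed by -0.11 ± 0.29 (adjusted p = 0.847) and RUVBL2 by 0.64 ± 0.30 (adjusted p = 0.191), with overlapping groups. Groups did not overlap for 4 of 40 genes, and for 18.8% of all genes. With 1 library left out, EPC1 was called in 9 of 9 fits, INO80D in 5 and ZNHIT2 in 3. Within batch 1 the count was 0 (8.61% of all genes), with EPC1 at 0.44 (adjusted p = 0.0547).

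**Figure D4:**
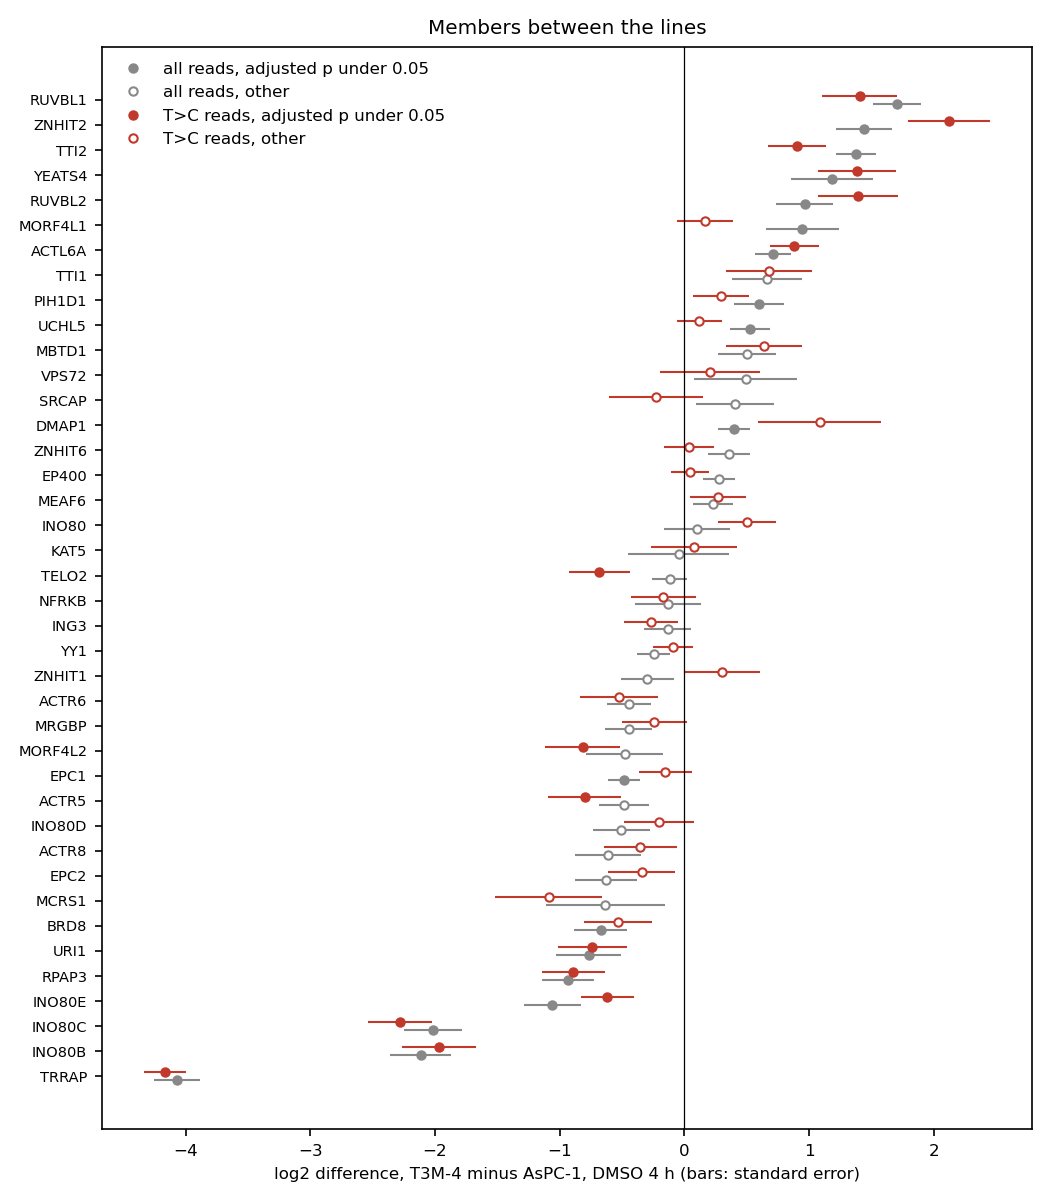
Log2 difference (T3M-4 minus AsPC-1) in DMSO 4 h libraries for each gene of the RUVBL1/2 group, with bars for the standard error (grey for all reads, red for T>C reads, filled where the adjusted p was under 0.05). TRRAP lies near -4 on both scales, INO80B and INO80C near -2, and RUVBL1 has the largest rise in all reads.

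Across libraries of a line, RUVBL1 in all reads was most like ZNHIT1 in AsPC-1 (Pearson r of log2 CPM 0.68 over 41 libraries), followed by TELO2 (0.52) and MORF4L1 (0.50). In T3M-4 it was most like MORF4L1 (0.91 over 20 libraries), VPS72 (0.85) and PIH1D1 (0.85), the substrate-binding subunit of R2TP. RUVBL2 was most like ZNHIT1 (0.88), EP400 (0.67) and TTI1 (0.60) in AsPC-1 and like RUVBL1 (0.77), VPS72 (0.75) and MCRS1 (0.69) in T3M-4. The median r over the group was 0.09 for RUVBL1 and -0.11 for RUVBL2 in AsPC-1, and 0.08 and 0.04 in T3M-4. These values are descriptions over libraries that share treatments and batches.

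Genes of related function, listed for context, behaved as follows in T>C reads. None of the PAQosome and RNA polymerase II assembly partners, PIKK kinases, snoRNP factors, H2A.Z genes or other chromatin remodellers was called after dTAG or CB-6644. Over all genes, 2.4% in AsPC-1 and 0.834% in T3M-4 were called after dTAG. No gene at all was called after CB-6644, so no list could hold a call there. After NVP-2, 12.9% of all genes were called higher and 17.6% lower in AsPC-1, and 12.4% and 14.2% in T3M-4. Beside these, the PIKK kinases, clients of TTT, had 3 of 5 called higher in AsPC-1 and 0 of 5 in T3M-4. The snoRNP factors, clients of R2TP, had 2 of 12 higher and 3 lower in AsPC-1 and 1 higher and 2 lower in T3M-4, and the other chromatin remodellers had 7 of 27 higher and 2 lower in AsPC-1 and 5 of 28 higher and 1 lower in T3M-4.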

How the data were processed

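SLAM-seq libraries of AsPC-1 and T3M-4 (62 in all) were counted by the authors with slamdunk at default settings over 3′UTR exons (hg38, GENCODE v44) and summed per gene, and the deposited values are raw counts of T>C reads and of all reads per gene, with no normalization. Columns of 61 libraries were usable in all reads, as the column of dTAG replicate 3.1 of AsPC-1 duplicated T>C values from a different library and was not used, and 18 empty columns were skipped. The version of slamdunk is not given in the sources used here.

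Counts were tested with edgeR 4.0.16 (R 4.3.3) by the quasi-likelihood test after TMM scaling and the default filter on low counts, each comparison on its own libraries, with Benjamini-Hochberg adjustment over all genes tested and a threshold of 0.05. CPM in the text are TMM-scaled. The labelled share was tested with limma 3.58.1 on log2((T>C + 0.5)/(all + 1)), so low shares are understated in their change. Differences between lines or times were interaction terms in edgeR. DESeq2 1.42.0 and other scalings, filters, pseudocounts, blocks, controls and left-out libraries were run as alternatives, and the steps were tested on simulated data. log2 CPM for the library sets and for the check of pairing used a prior count of 2, and those for likeness were log2(CPM + 1).

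Replicate numbers of the labels were taken to pair the libraries where every same-numbered pair had deviations with r over 0.1. This held for dTAG in AsPC-1 (r 0.20 to 0.54 over 10 pairs) and T3M-4 (0.34 to 0.59), CB-6644 at 12 h in AsPC-1 (0.14 to 0.69) and CB-6644 in T3M-4 (0.21 to 0.50). In that order, 5 of 10, 4 of 4, 2 of 4 and 1 of 4 treated libraries were most like the control of their own number. Whether r came from pairs or from a shared experiment or batch was not tested. Nothing in the labels says that libraries were separate cultures, and numbers that share a first part (1.1, 1.2, here called an experiment) may be 1 culture. The p-values therefore measure the spread between these libraries, which may be technical. Counting intervals cover counting error only.

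The 42 genes and the lists were chosen with earlier results of these data known. Genes named were RUVBL1 and RUVBL2, every called gene (at most 6 in each direction where over 12 were called) and the gene with the smallest p in each direction. Counts of MORF4L2 and all-read counts of TFPT were multiples of 4 and those of ZNHIT6 of 2, so 1 read there may have been counted more than once. 3′UTR exons of RUVBL1, INO80E, MCRS1, TFPT, ACTR6, ACTL6A, KAT5, TTI2, TELO2 and ZNHIT3 overlap those of another gene on the other strand, and those of SRCAP a gene on the same strand. In bulk libraries, fewer cells with a transcript and less of it per cell cannot be told apart.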

Additional observations from a re-analysis of the deposited data

Results flagged for a closer look

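In groups of 4 to 10 libraries, a value stood apart when its gap to the nearest other library was a large part of the group's range (Dixon's 95% critical value). This was tested in 253 groups of named genes, of which 14 had such a value (5.53%), where chance alone would mark about 1 in 20.

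RUVBL2 and RUVBL1 had 3 such values each. Those of RUVBL2 were all in experiment 3 of AsPC-1. Replicate 3.3 of dTAG had 131 CPM of T>C reads and 222 CPM of all reads, and NEG replicate 3.3 had 82.3 CPM of all reads, each the highest of its group. RUVBL1 was lowest of its group in all reads at 5.41 CPM in replicate 1.1 of CB-6644 at 4 h in AsPC-1. Its labelled share was highest of its group in T3M-4 in replicate 1.1 of both CB-6644 (9.32%) and DMSO (11.4%).

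Among the other genes, ZNHIT6 had a high value of 41.1 CPM of T>C reads in replicate 1.3 of CB-6644 at 4 h in AsPC-1 and a high labelled share of 44.2% in DMSO 4 h replicate 1.1. In NVP-2 replicate 2.2 of AsPC-1, VPS72 was high at 26.5 CPM of T>C reads and ZNHIT2 at 0.551 CPM, the latter 1 read. ING3 was low at 1.51 CPM in NVP-2 replicate 2.2 of T3M-4. Labelled shares were low for MBTD1 in NEG replicate 2.2 (35.6%) and for INO80B in DMSO replicate 2.2 (6.58%), both in T3M-4. ACTR6, an actin-related subunit of SRCAP, was high at 11.05 CPM of all reads in replicate 3 of CB-6644 at 12 h in AsPC-1.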

How the results depend on the processing

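Of 354 counts of called genes under alternatives, 313 were within 1.5 times the reported count and 41 were not. Of 2128 values of named genes, 1849 kept their direction and side of the threshold, 195 lost and 13 gained a call, 59 changed sign without a call in either fit, and 12 reversed. In T>C reads, DESeq2 called 1 gene (TRRAP) after dTAG in AsPC-1 (4.09% of all genes) and 1 (KAT5) after CB-6644 at 12 h (0.164%). It called 11 after NVP-2 in T3M-4 (36.3% of all genes). A block on library set and experiment called 1 after dTAG (7.79% of all genes) and 7 after NVP-2 (14.1%) in AsPC-1. The labelled-share count after dTAG in AsPC-1 was 0 centred on the library median (0.785% of all genes), 0 without experiment 1 (1.36%) and 8 without experiment 2 (21%). In alternatives added after seeing the data it was 0 in batch 2 (0.0247% of all genes), 5 in experiment 1 (16.3%) and 0 in experiment 2 alone (0%). Scaled by all reads, T>C counts after NVP-2 were 40 in each line, all lower (94.2% of all genes were called in AsPC-1 and 87.2% in T3M-4). This reversed RUVBL1 (-2.28), RUVBL2 (-2.23) and ACTL6A (-2.33) in AsPC-1 and RUVBL1 (-2.80), RUVBL2 (-2.89), ACTL6A (-1.95), URI1 (-1.97) and TELO2 (-1.45) in T3M-4. Centred shares after NVP-2 gave 13 calls in AsPC-1 (30.3% of all genes) and 9 in T3M-4 (24.1% of all genes) and reversed RUVBL1 (0.50 and 0.16) and RUVBL2 (0.45 and 0.15). With DMSO 12 h as control, NVP-2 in AsPC-1 gave 7 calls in T>C reads (25% of all genes) and 2 in all reads (4.64% of all genes). With NEG of experiment 3 it gave 3 in all reads (6.79% of all genes). NVP-2 in T3M-4 gave 1 call in all reads in batch 1 (1.9% of all genes) and 14 in batch 2 (18.8%), and the labelled share between the lines gave 0 in batch 1 (8.61%), all added after seeing the data. The cause of these shifts was not tested.

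With 1 library left out, counts ranged over 7 to 11 in T>C reads and 3 to 7 in all reads for NVP-2 in AsPC-1, 4 to 7 and 1 to 2 in T3M-4, and 1 to 4 in labelled share between the lines. The lowest T>C counts came without DMSO 1.2 or 2.1 in AsPC-1 and without DMSO 1.2 or 2.2 in T3M-4, the lowest all-reads counts without NVP-2 2.2 or DMSO 1.2, 2.1 or 2.2 in AsPC-1 and without any library but NVP-2 1.2 and DMSO 1.1 in T3M-4, and the lowest share counts without T3M-4 1.1, 1.2 or 2.1 or AsPC-1 2.1. At the lowest T>C counts after NVP-2, 24.6% of all genes were called in AsPC-1 and 19.1% to 19.3% in T3M-4. In T>C reads between the lines, ACTR5 and MORF4L2 were called in 3 of 9 fits each with 1 library left out. A replicate block changed no count of calls where numbers were taken to pair the libraries (for labelled share after dTAG in AsPC-1, 16 genes, 14 of them shared). Elsewhere not every same-numbered pair had r over 0.1 (r from -0.02 to 0.42, with 3 of 5 libraries most like their own number, for CB-6644 at 4 h in AsPC-1, and -0.17 to 0.20, 2 of 4, and 0.05 to 0.48, 2 of 4, for NVP-2 in AsPC-1 and T3M-4). For NVP-2 in AsPC-1 the block gave 9 calls in T>C reads (8 shared, 20.8% of all genes) and 2 in all reads (7.24% of all genes). In T3M-4 it gave 6 (5 shared, 24.2% of all genes) and 11 (7 higher, 4 lower, 16.8% of all genes). Depth limits NVP-2 most, where INO80B, TTI2, ING3 and ZNHIT2 in AsPC-1 rest on 1 to 22 T>C reads over the 4 libraries.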
